A study of Mus musculus with 6 samples.

Results

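The 8 genes described here encode proteins of apoptotic cell clearance, together with one signal that holds it back: Axl, Mertk, Mfge8, Lrp1, Cd36, Apoe, Anxa1 and Cd47. They were picked by gene symbol for their known roles, at a time when earlier results of these data were known, and all 8 were found among the 770 genes of the deposited table. RNA was measured in FFPE (formalin-fixed) primary tumours of mice whose oral squamous carcinomas had been induced with the carcinogen 4NQO. The vehicle group and the group given agonistic anti-CD40, an antibody that activates the CD40 receptor of antigen-presenting cells, had 3 samples each. Dose, timing, age, sex and background strain were not given in the sources used here, and both groups carried the carcinogen-induced tumours. Nothing in the labels ties each sample to an animal of its own. The p-values therefore cover only the variation among these 6 samples, part of which may be technical.

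Apoptotic cells display the lipid phosphatidylserine, and phagocytes recognise it either directly or through soluble bridging proteins. Mertk and Axl are receptor tyrosine kinases that bind such bridges. Mfge8 links the lipid to integrins, while Lrp1 and Cd36 bind further ligands on the dying cell. Cd47 on healthy cells signals to phagocytes not to engulf them. In tumours, macrophages do much of this work, but endothelium, fibroblasts and carcinoma cells carry several of these proteins as well. In whole tumour RNA, a change in the number of cells of a type and a change in RNA per cell cannot be told apart.

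Values are log2 normalized counts as the authors deposited them, and a positive difference means a higher anti-CD40 mean. The whole counts recovered from these values summed to between 333400 and 578598 per sample. In all 6 samples, every one of the 8 genes exceeded the limit derived from the negative control probes. Of the 8 genes in the squamous epithelium marker list, the 4 measured were Epcam, Cdh1, Egfr and Itga6, all above background in every sample. The keratin genes of that list were not analysed here, and the 4 measured genes do not single out squamous tissue. No adipocyte or skeletal muscle gene of the marker lists was analysed here. Over all genes, the median deviation of vehicle 3 from each gene's own mean over the 6 samples was -0.29, the lowest of the 6. The vehicle 3 mean over 20 genes assumed to be housekeeping genes, 11.05, was within the range of 11.01 to 11.11 over all samples.

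Across the clearance genes, 7 of 8 were higher in the mean in anti-CD40 tumours, where 54.5% of all genes were. None passed the test. The count of members higher in the mean was 5 of 8 without vehicle 3 or without anti-CD40 1. It was 3 of 8 when every sample was centred on its macrophage markers. Those markers were themselves higher in the mean for 7 of 8 genes. The 54.5% is from the fit to all 6 samples, and the share in these other fits is not given here. The median over all genes was -0.090 without vehicle 3, 0.038 without anti-CD40 1 and -0.24 with macrophage centring. Axl had the largest difference, 0.56 or 1.47-fold, followed by Cd36 at 0.48 and Mertk at 0.46, whereas Cd47 differed by 0.0077 and Anxa1 was lower by 0.33 in the mean (a difference of -0.33). The median difference over the 8 genes was 0.19, beside 0.038 over all 770 genes and 0.043 over the 523 genes above background in every sample. With limma and Benjamini-Hochberg adjustment over all genes, 0 of 8 members were called at an adjusted p of 0.05, and 0% of all genes were. At an unadjusted p under 0.05, limma listed 1 of 8 members, Axl, and 3.25% of all genes, 25 in number. Axl was past that level in 1 of the 6 limma fits that left out a sample (unadjusted p 0.0450 to 0.159), and it was not past it with limma-voom (0.0629) or macrophage centring (0.433). A count-based alternative, limma-voom, also called 0, and listed 36 genes at that unadjusted level. The groups did not overlap for 2 of 8 members, Axl and Lrp1, both higher, where 10.3% of all genes did not overlap. By direction, 6.75% of all genes lay entirely higher, as 2 of 8 members did, and 3.51% entirely lower, as 0 of 8 did. Leaving out vehicle 2 brought the members' median to 0.46, leaving out vehicle 3 to 0.065, and leaving out anti-CD40 3 to 0.33. In these fits the median over all genes moved too, to 0.11, -0.090 and 0.072 in the same order.

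**Figure D1:**
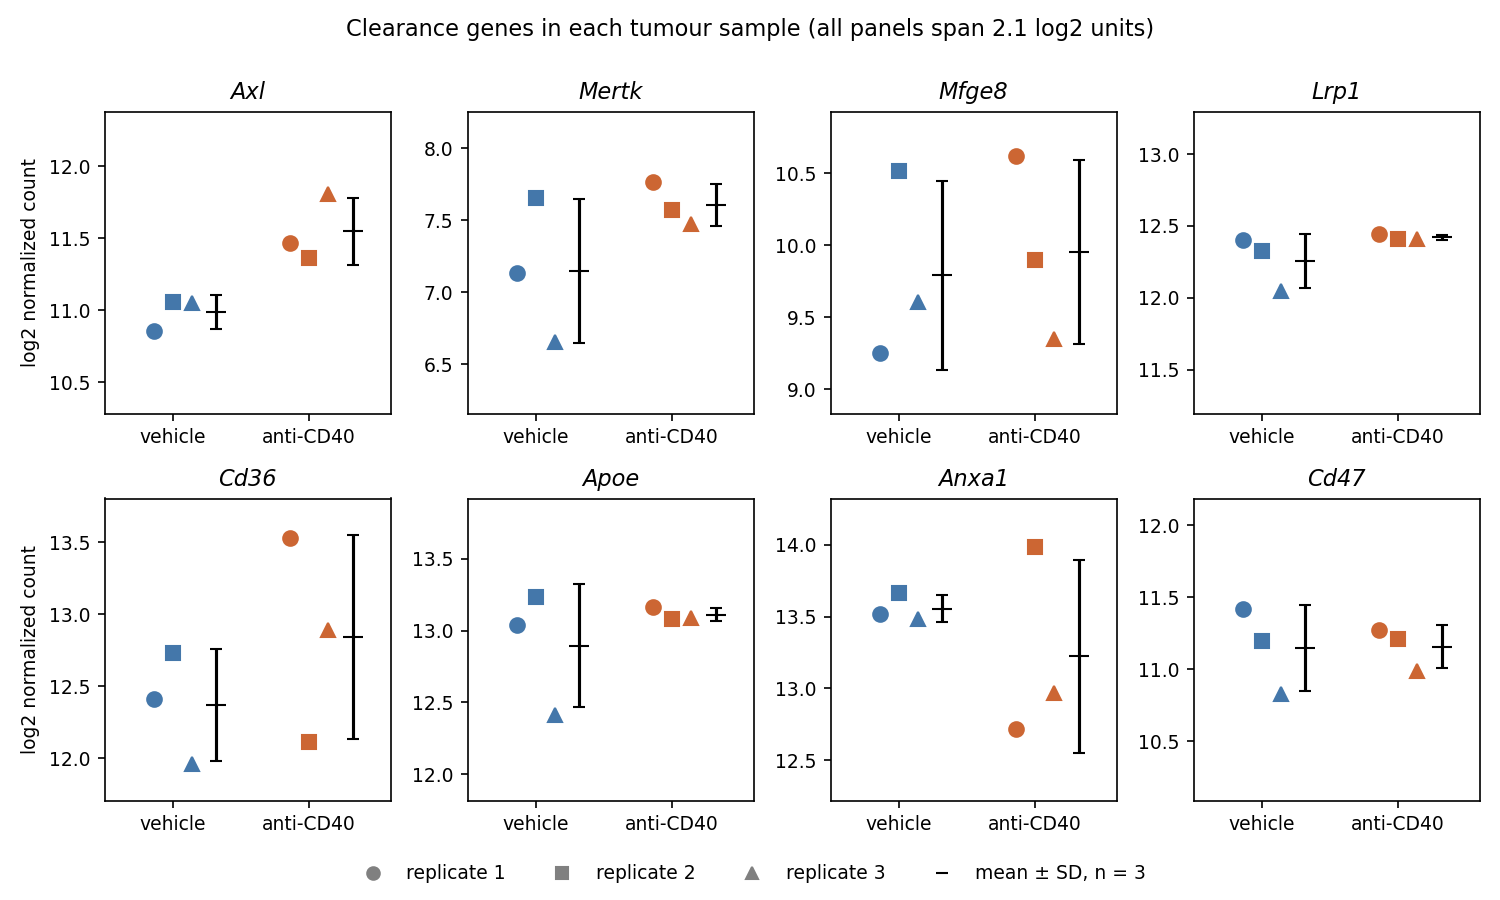
Log2 normalized counts of the 8 clearance genes (vertical axes, each spanning 2.1 log2 units) in the 3 vehicle (blue) and 3 anti-CD40 (orange) samples, with marker shapes for the replicate number and black bars for mean ± SD (n = 3). The groups are apart for Axl and, by 0.0091 log2, for Lrp1, and they overlap for the other genes.

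Axl encodes a receptor kinase that binds phosphatidylserine through the bridging protein Gas6. It was 10.85, 11.06 and 11.05 in vehicle replicates 1, 2 and 3, and 11.47, 11.36 and 11.81 in anti-CD40 replicates 1, 2 and 3. Every anti-CD40 sample lay above every vehicle sample, with 0.30 between the nearest pair. The means were 10.99 ± 0.12 in vehicle and 11.55 ± 0.23 in anti-CD40 tumours (SD, n = 3). The difference of 0.56 (SE 0.23) had a 95% confidence interval from 0.032 to 1.09 and an adjusted p of 0.974 with limma. Its p was the 22nd lowest of 770 genes. With any 1 sample left out the difference lay between 0.43 and 0.65. The groups remained apart after quantile normalization and after centring on housekeeping genes, but overlapped on the scale of limma-voom, where the difference was 0.51.

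Mertk, the relative of Axl on which macrophages depend for engulfing apoptotic cells, had the fewest counts behind its values, with 56 to 93 per sample. The counting error at 56 counts is 0.19 log2. Vehicle samples were at 7.13, 7.65 and 6.65 for replicates 1, 2 and 3, and anti-CD40 samples at 7.76, 7.57 and 7.48. The groups overlapped, since vehicle 2 lay among the anti-CD40 samples, and the vehicle samples were spread more widely, at 7.15 ± 0.50 against 7.60 ± 0.15 (SD, n = 3). The difference of 0.46 (SE 0.30, interval -0.24 to 1.15) had an adjusted p of 0.974 with limma, and anti-CD40 samples lay above the vehicle mean in 3 of 3. It was 0.21 without vehicle 3 and 0.71 without vehicle 2.

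The 8 macrophage markers, all above background in every sample, had mean levels of 9.54, 9.65 and 8.80 in vehicle and 9.63, 9.68 and 9.52 in anti-CD40 tumours. The sum of their scaled counts ran from 8089 to 18216 in vehicle and from 14514 to 15521 in anti-CD40 tumours, and 7 of the 8 were higher in the mean. Vehicle 3 was thus lowest both for this list and for Mertk. When every sample was centred on the macrophage list, the Mertk difference became 0.18 and the Axl difference 0.28, and both genes had overlapping groups. That centring was chosen after the values were seen, and it moved the median of all genes to -0.24.

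The annotated start regions of the receptor pair are shown with those of Lrp1, the other member whose groups did not overlap, and Anxa1, the member with a lower mean. Each is the 250 bases before the start in RefSeq on build GRCm38.p6, written 5′ to 3′ on the strand of the gene. Capitals mark the GC box (GGGCGG on either strand, bound by Sp1-type factors) and the TATA box (TATAAA on either strand). These windows are Axl at chr7:25788734-25788983 (minus strand), Mertk at chr2:128698665-128698914 (plus strand), Lrp1 at chr10:127621149-127621398 (minus strand) and Anxa1 at chr19:20390672-20390921 (minus strand). Part of the Axl window lies inside the span that RefSeq gives that gene.
Axl: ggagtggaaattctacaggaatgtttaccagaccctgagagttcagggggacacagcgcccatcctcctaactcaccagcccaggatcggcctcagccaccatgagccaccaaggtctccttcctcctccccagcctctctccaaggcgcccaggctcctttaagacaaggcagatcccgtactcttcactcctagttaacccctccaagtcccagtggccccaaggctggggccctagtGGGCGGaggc
Mertk: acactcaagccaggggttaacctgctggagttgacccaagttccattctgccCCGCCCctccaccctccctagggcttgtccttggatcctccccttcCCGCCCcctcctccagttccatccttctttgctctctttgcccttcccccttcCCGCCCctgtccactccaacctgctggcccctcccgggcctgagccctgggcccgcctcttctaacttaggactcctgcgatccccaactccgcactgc
Lrp1: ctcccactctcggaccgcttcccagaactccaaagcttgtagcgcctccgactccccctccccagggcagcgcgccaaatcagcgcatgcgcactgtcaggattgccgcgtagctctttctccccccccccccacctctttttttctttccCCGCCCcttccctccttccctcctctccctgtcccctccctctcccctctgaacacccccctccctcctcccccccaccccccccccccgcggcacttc
Anxa1: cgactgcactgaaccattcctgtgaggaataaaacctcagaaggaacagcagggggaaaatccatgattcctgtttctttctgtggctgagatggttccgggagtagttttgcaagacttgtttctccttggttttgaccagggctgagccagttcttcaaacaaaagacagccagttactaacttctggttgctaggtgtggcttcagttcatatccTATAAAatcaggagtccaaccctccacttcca

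Windows were found for all 8 members. A GC box stood in at least 1 window of 6 of the 8, with 3 copies for Mertk and 1 each for Axl and Lrp1, and it occurs in 32.7% of all 32851 windows of that length. Apoe and Anxa1 had none. The TATA box was found for Anxa1 and in 1 window of Apoe, against 12.4% of all windows. The AP-1 motif TGANTCA, searched on both strands, was in no member window and in 6.75% of all windows. These matches describe letters in the windows only.

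Mfge8 encodes lactadherin, a secreted bridge between phosphatidylserine and integrins. It was 9.25, 10.52 and 9.60 in vehicle replicates 1, 2 and 3, and 10.62, 9.89 and 9.35 in anti-CD40 replicates 1, 2 and 3. Samples of both groups were found at the top and at the bottom of this range, so the spread within groups (SD 0.65 and 0.64) exceeded the difference of 0.16 (SE 0.44, interval -0.86 to 1.19, limma adjusted p = 0.974). Immature granulocyte genes had list means of 6.56, 10.05 and 6.47 in vehicle and 9.94, 8.66 and 6.71 in anti-CD40 tumours. The 3 samples highest for Mfge8 were thus also the 3 highest for that list mean. The summed scaled counts of the list gave another order. They were 110414, 146404 and 28525 in vehicle and 92742, 149456 and 28108 in anti-CD40 tumours. Vehicle 1, the lowest sample for Mfge8, then stood above anti-CD40 1, the highest. Of those 7 marker genes 1, S100a8, was above background in every sample. S100a8 was 16.75, 17.12 and 14.79 in vehicle and 16.43, 17.18 and 14.77 in anti-CD40 tumours. The highest value of the other 6 was 11.17, for Camp in anti-CD40 1. The summed counts of the list are thus mostly those of S100a8. This gene differed by -0.095, while the other 6 were higher in the mean. The list's part in the Mfge8 values was not tested. The sign of the Mfge8 difference turned without vehicle 1 (-0.11) or anti-CD40 1 (-0.17).

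Lrp1 encodes a large endocytic receptor that takes up Apoe-containing particles and calreticulin-marked cells. Its values were 12.40, 12.33 and 12.04 in vehicle replicates 1, 2 and 3, and 12.44, 12.41 and 12.41 in anti-CD40 replicates 1, 2 and 3. The anti-CD40 samples were nearly level, with an SD of 0.017 against 0.19 in vehicle, and all lay above the vehicle samples. The gap between the groups was 0.0091, less than the counting error of 0.037 at the lowest count of this gene. The difference of 0.16 (SE 0.21, interval -0.33 to 0.66, limma adjusted p = 0.974) fell to 0.058 without vehicle 3. The groups overlapped after quantile normalization, after centring on housekeeping genes and with limma-voom.

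Cd36, a scavenger receptor for oxidised lipids and thrombospondin that endothelium, adipocytes and muscle also carry, had the widest range of the 8 genes, 1.57 log2, although Mfge8 had the larger pooled SD (0.65 against 0.57). Vehicle samples were at 12.41, 12.73 and 11.96 for replicates 1, 2 and 3, and anti-CD40 samples at 13.53, 12.11 and 12.89. Anti-CD40 1 was the highest sample and anti-CD40 2 the second lowest, so the groups overlapped. The means of 12.37 ± 0.39 and 12.84 ± 0.71 (SD, n = 3) differed by 0.48 (SE 0.40, interval -0.45 to 1.40, limma adjusted p = 0.974), and by 0.27 if vehicle 3 was left out. Omitting anti-CD40 1 gave 0.13 and omitting anti-CD40 2 gave 0.84. The endothelial list, with 7 of 7 genes above background in every sample, had its highest mean in the same sample as Cd36, at 10.69 in anti-CD40 1, and its lowest in vehicle 3, at 9.93. Its summed scaled counts were 8777 to 12739 in vehicle and 9400 to 14258 in anti-CD40 tumours, and its part in the Cd36 values was not tested.

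Apoe encodes a lipid carrier that phagocytes secrete and that takes part in the export of engulfed cholesterol. It was 13.04, 13.23 and 12.41 in vehicle replicates 1, 2 and 3, and 13.16, 13.08 and 13.09 in anti-CD40 replicates 1, 2 and 3. Vehicle 3 stood well below every other sample, and the other 5 lay close together. The difference of 0.21 (SE 0.27, interval -0.41 to 0.84, limma adjusted p = 0.974) became -0.026 without vehicle 3 and 0.38 without vehicle 2.

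Anxa1 encodes annexin A1, a phosphatidylserine-binding protein released during the resolution of inflammation and abundant in squamous epithelium. Its values were 13.52, 13.66 and 13.49 in vehicle replicates 1, 2 and 3, and 12.72, 13.99 and 12.97 in anti-CD40 replicates 1, 2 and 3. Anti-CD40 1 and 3 lay below every vehicle sample and anti-CD40 2 above all of them, so the treated group was spread over 0.67 (SD) against 0.096 in vehicle. The mean difference of -0.33 (SE 0.35, interval -1.15 to 0.49, limma adjusted p = 0.974) moved to -0.077 if anti-CD40 1 was left out, to -0.20 if anti-CD40 3 was, and to -0.71 if anti-CD40 2 was. The epithelial list, with 4 of 4 measured genes above background in every sample, had means of 11.25, 11.55 and 11.73 in vehicle and 11.26, 11.45 and 11.12 in anti-CD40 tumours. Summed scaled counts of these 4 were 12990 to 19594 in vehicle and 10274 to 14956 in anti-CD40 tumours. Epcam, Cdh1 and Itga6 were lower in the mean and Egfr was higher. The groups did not overlap for Cdh1 (-0.36, limma adjusted p = 0.974), beside 3.51% of all genes that lay entirely lower. Itga6 had the widest range of the 4, 1.72 log2, and was highest in vehicle 3, at 13.38. The lowest list mean was in anti-CD40 3, and among anti-CD40 samples both Anxa1 and the list were highest in replicate 2. Other samples differed in order: the list mean was highest in vehicle 3, the lowest vehicle sample for Anxa1. In anti-CD40 1, lowest for Anxa1, the list mean of 11.26 was close to the 11.25 of vehicle 1. The list's part in the Anxa1 values was not tested.

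Cd47, the signal against engulfment, was the member with the smallest difference. It was 11.42, 11.20 and 10.83 in vehicle replicates 1, 2 and 3, and 11.27, 11.21 and 10.99 in anti-CD40 replicates 1, 2 and 3. The anti-CD40 values lay inside the vehicle range. The means of 11.15 ± 0.30 and 11.16 ± 0.15 (SD, n = 3) differed by 0.0077 (SE 0.24, limma adjusted p = 0.994), with a 95% confidence interval from -0.56 to 0.58. Its sign turned when vehicle 3 (-0.15), anti-CD40 1 (-0.049) or anti-CD40 2 (-0.020) was left out. Its receptor gene Sirpa was not analysed here.

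**Figure D2:**
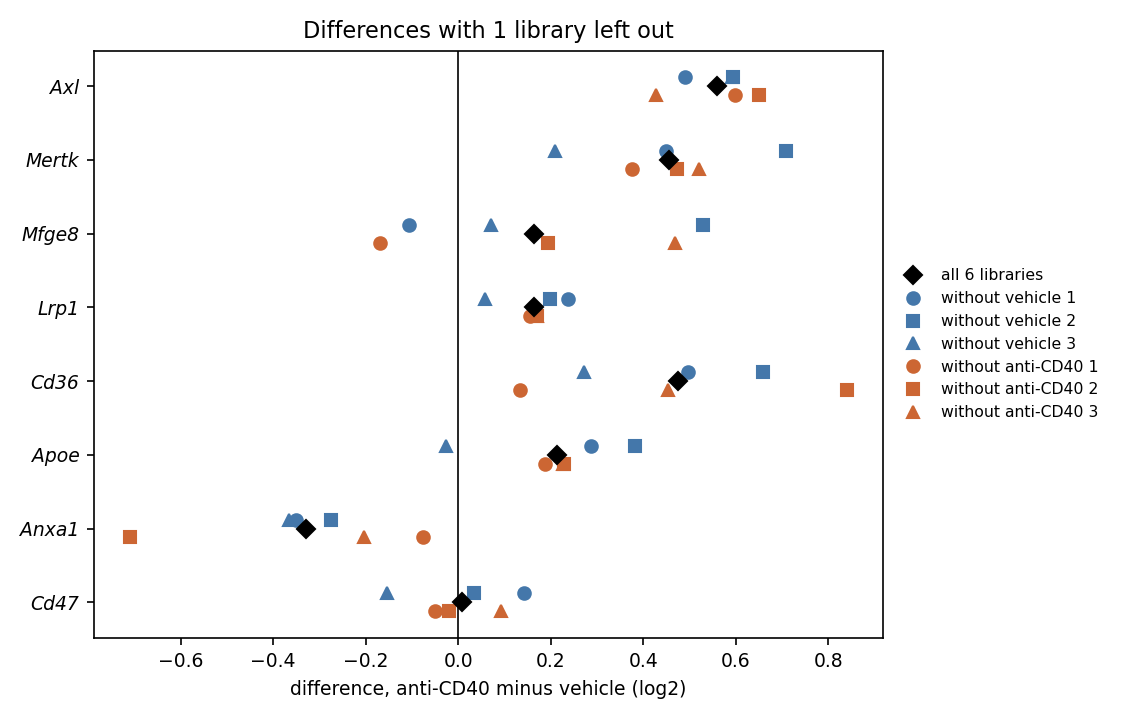
Difference between groups in log2 (horizontal axis) for each clearance gene with all 6 samples (black diamonds) and with 1 sample left out (blue for vehicle, orange for anti-CD40). The Axl points stay between 0.43 and 0.65, those of Cd36 run from 0.13 to 0.84, and points on both sides of 0 are seen for Mfge8, Apoe and Cd47.

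The 8 genes were not moved by the same samples. Vehicle 3 held the lowest value of 5 members, Mertk, Lrp1, Cd36, Apoe and Cd47, and its median deviation over the 8 members of -0.31 was close to the -0.29 over all genes. Anti-CD40 1 held the highest value of 4 members, Mertk, Mfge8, Lrp1 and Cd36, with a median deviation of 0.18 over the members and -0.026 over all genes. It also held the lowest value of Anxa1. Anxa1 and Cd36 were the most unlike pair, with a root mean square difference between their mean-centred profiles of 0.90 log2 over the 6 samples. Mertk and Apoe were among the closest, at 0.17, and Lrp1 and Cd47 were at 0.13.

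**Figure D3:**
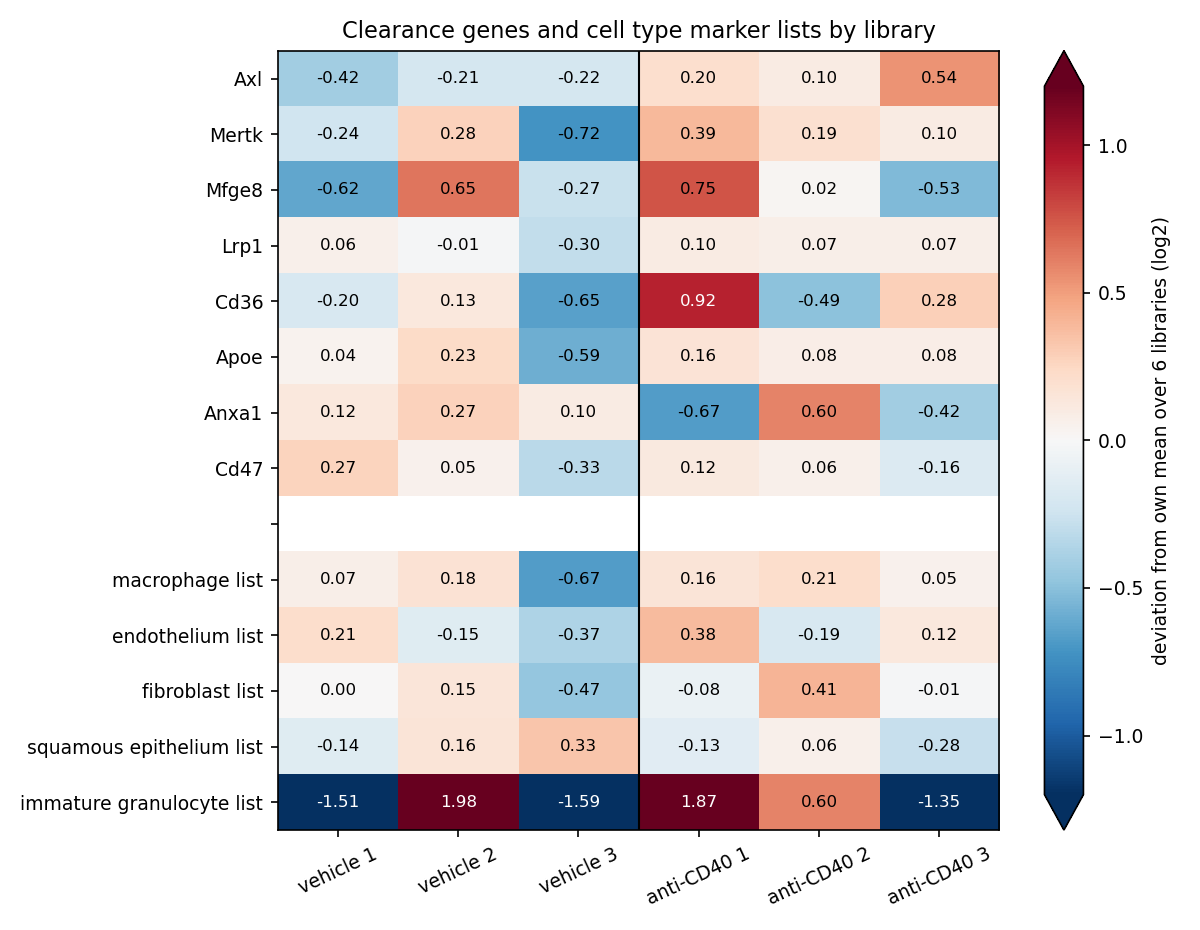
Deviation in log2 (colour and printed value) of each clearance gene, and of the mean of each cell type marker list, from its own mean over the 6 samples, which are in columns. Vehicle 3 is low for Mertk (-0.72), Apoe (-0.59), Cd36 (-0.65) and the macrophage list (-0.67), while Mfge8 follows another order.

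Among the 522 other genes above background in every sample, the profile nearest to each member was found by the root mean square difference of mean-centred values over the 6 samples. For Axl these were Col4a1 (0.15), Irf4 (0.16) and Tgfb3 (0.17), against a spread of Axl around its own mean of 0.32. For Mertk they were the Fc receptor gene Fcgr3 (0.15), Tlr7 (0.15) and the kinase gene Syk (0.15), with Apoe in 5th place. Mfge8 was nearest to Ceacam1 (0.23), Cd1d1 (0.28) and Dpp4 (0.28), genes expressed in epithelium among other tissues. The nearest profile to Cd36 was that of Sdha (0.076), a mitochondrial enzyme gene that is among the 20 genes assumed here to be housekeeping genes, followed by Cd55 (0.13) and Mef2c (0.17). Sdha was 12.71, 12.88 and 12.25 in vehicle and 13.81, 12.47 and 13.06 in anti-CD40 tumours, so a gene of that assumed set varied over the same samples as Cd36. Apoe was nearest to Nfkb2 (0.081), Bcl2l1 (0.10) and the complement gene C1qa (0.10), and Anxa1 to Sh2d1b1 (0.13), Cx3cr1 (0.15) and Tnf (0.18). Cd47 and Lrp1, whose own spreads were 0.19 and 0.14, were nearest to genes that vary as little: Irf2 (0.039), Tyk2 (0.083) and Ctsh (0.084) for Cd47, and Rela (0.048), Irak1 (0.061) and Il11ra1 (0.079) for Lrp1. These likenesses are descriptions over 6 samples that share the scaling of each sample.

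Of 50 further genes listed for apoptotic cell clearance, 19 were measured. None was called by limma after adjustment, and none had an unadjusted p under 0.05, beside 3.25% of all genes. In the mean 15 (78.9%) were higher and 4 lower in anti-CD40 tumours, where 54.5% of all genes were higher. Of the 19, 13 were above background in every sample. Their median difference over all 19 was 0.16. Leaving out vehicle 1 moved that median to 0.37, leaving out anti-CD40 2 to 0.098, and leaving out anti-CD40 3 to 0.24. The median over all genes in these fits was 0.066, -0.022 and 0.072 in the same order. By role, means were higher in anti-CD40 tumours for all 4 bridging or opsonising genes, from 0.032 for C1qa to 0.83 for Thbs1, and for all 3 lipid handling genes, Abca1 (0.16), Abcg1 (0.15) and Pparg (0.11). The same held for 3 of 3 phosphatidylserine receptor or integrin genes and 3 of 3 scavenger or tethering genes, and for Pecam1 (0.23). It held for 1 of 3 find-me genes, with a median of -0.34, and for 0 of 2 cytokine genes, Il10 (-0.31) and Tgfb1 (-0.034). Above background in every sample were 2 of 3 lipid handling genes, 2 of 3 receptor or integrin genes and 1 of 3 scavenger or tethering genes. Il10 was above background in 1 of 6 samples.

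The gene of lowest p among the 19 was Cx3cl1, which encodes fractalkine, a signal that draws phagocytes to dying cells. It was 7.28, 7.22 and 6.96 in vehicle replicates 1, 2 and 3, and 6.75, 6.49 and 6.76 in anti-CD40 replicates 1, 2 and 3. All anti-CD40 samples lay below all vehicle samples, the only gene of the 19 without overlap. Of all genes 10.3% did not overlap, and 3.51% lay entirely lower. The gap between the groups was 0.21, less than the counting error of 0.24 at the lowest count of this gene, 35. The difference was -0.49 (SE 0.22, limma adjusted p = 0.974). Its receptor gene Cx3cr1 differed by -0.34, with overlapping groups.

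Itgb3, the beta chain of the integrin that binds Mfge8, was 6.91, 8.39 and 7.40 in vehicle and 8.50, 8.11 and 8.49 in anti-CD40 tumours. Vehicle 2 lay among the anti-CD40 samples, and the difference was 0.80 (SE 0.39), 0.47 without vehicle 1 and 1.21 without vehicle 2. Platelets also carry this integrin chain, and the platelet list, of which 2 of 5 genes were measured and both were above background in every sample, had means of 6.55, 8.63 and 6.67 in vehicle and 8.79, 7.67 and 9.51 in anti-CD40 tumours. Its summed scaled counts ran from 184 to 936 in vehicle and from 478 to 1855 in anti-CD40 tumours, and both genes were higher in the mean. Vehicle 1 and 3 were thus the lowest samples for Itgb3 and for this list, and its part in the Itgb3 and Thbs1 values was not tested. Thbs1, a thrombospondin that bridges apoptotic cells to Cd36, differed by 0.83 (SE 0.51). It was highest in anti-CD40 3, as the platelet list was. In vehicle, however, Thbs1 was 10.65, 10.05 and 9.90, highest in replicate 1, where the list was lowest. Leaving out anti-CD40 3 gave 0.31, and leaving out anti-CD40 2 gave 1.35. The complement gene C3 differed by 0.56 (SE 0.35), and by 0.35 without vehicle 2, 0.36 without anti-CD40 3 and 0.89 without vehicle 1. The difference of Cd14, a tethering receptor, was 0.39 (SE 0.32), with 0.11 without anti-CD40 2, 0.22 without vehicle 3 and 0.62 without anti-CD40 1. Cd14 is also 1 of the 8 macrophage markers. Marco, a scavenger receptor above background in 1 of 6 samples, differed by 0.55 (SE 0.33), and by 0.27 without anti-CD40 2. Each of these 5 genes had overlapping groups and an adjusted p of 0.974 with limma.

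**Figure D4:**
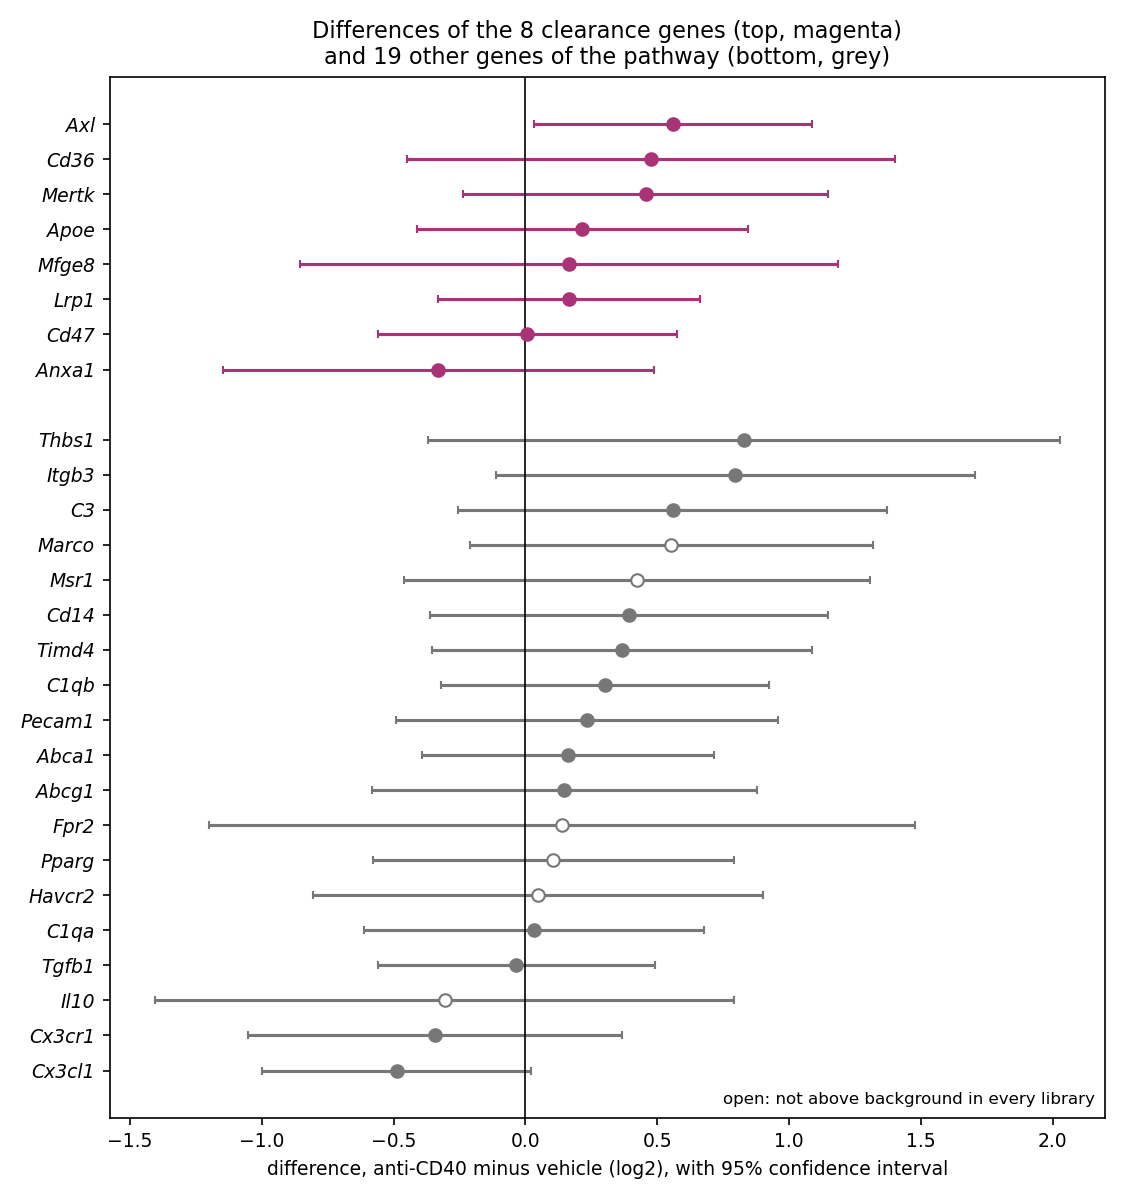
Differences between groups in log2 with 95% confidence intervals (horizontal axis) for the 8 clearance genes (magenta) and the 19 other pathway genes (grey), with open symbols for genes not above background in every sample. The Axl interval runs from 0.032 to 1.09, is not adjusted for the number of genes and comes from the fit to all 6 samples; the other intervals cross 0.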

How the data were processed

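RNA of 3 vehicle and 3 anti-CD40 tumour samples was measured. The deposited table holds log2 values of normalized counts for 770 genes, 6 positive and 8 negative controls. The sources used here name no platform, software or normalization. The values are log2 of a per-sample factor (1.72 to 3.28) times a whole count, plus 4.55: all 4704 came out whole within 0.05. This offset shrinks the log2 differences of low genes. The background limit was 2 SD above the negative controls' mean. No 2 replicates were alike within counting noise (chi-square per degree of freedom 64.2 to 121).

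Groups were compared with limma 3.58.1 in R 4.3.3 (lmFit and eBayes, no trend, not robust) with two-sided tests over all 770 genes, Benjamini-Hochberg adjustment, and 4 residual and 3.37 prior degrees of freedom. For 3 against 3 samples the smallest p an exact permutation test allows is 0.1. The fit was tested on 20 simulated tables with independent noise and many genes changed at once. It recovered 55.4% of 2-fold, 89.4% of 4-fold and 96.7% of 8-fold changes, and 3.76% of its calls were false. Changes under 2-fold were not simulated, and all 8 members differed by less than that. How often changes of their size would be called was thus not tested. Alternatives were other moderation, quantile normalization, housekeeping centring (20 genes assumed from common use in such panels, since the table does not mark any), a background filter, a pseudocount of 1, limma-voom with TMM-type factors, a replicate block, and each sample left out. Named genes were the 8 members, the 6 other pathway genes of lowest p with any whose groups do not overlap, and the 3 nearest profiles per member. Further genes were named as examples of a list. Members and lists were chosen with earlier results of these data known. Start regions came from RefSeq (GRCm38.p6), matched by symbol. Python 3.11.15, pandas 2.3.3 and matplotlib 3.10.9 were used.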

Additional observations from a re-analysis of the deposited data

How the results depend on the processing

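Under every alternative run, 0 genes and 0 of the 8 members were called. Of 120 member differences recomputed, 109 kept their direction and 11 turned, and all 89 of the 6 named pathway genes kept theirs. For Marco the background filter gave no value. The other moderation, background filter and replicate block settings leave each difference as it was in the main fit. In those fits no direction could turn, so their part of these counts was fixed beforehand. With 1 sample left out, the members' median ran from 0.065 to 0.46, and the median of all genes from -0.090 to 0.11. The differences ran from -0.17 to 0.53 for Mfge8, -0.15 to 0.14 for Cd47 and -0.026 to 0.38 for Apoe. With limma-voom, Cd47 was at -0.044. Centring on macrophage markers, added after seeing the data, subtracts from every gene the amount by which that list differs. It gave medians of -0.091 for the members, -0.12 for the other pathway genes and -0.24 for all genes. The differences became -0.12 for Mfge8, -0.27 for Cd47, -0.12 for Lrp1 and -0.067 for Apoe. The cause of the other changes was not tested. Genes at an unadjusted p under 0.05 numbered 25, but 52 after quantile normalization, 56 after macrophage centring and 13 to 49 with 1 sample left out. The deviations of same-numbered samples had correlations of -0.43, 0.069 and 0.28. Samples of unlike number were not compared, so these values cannot decide whether the samples are paired. The main fit did not take the numbers as pairs. With a replicate block 0 genes were called and 32 had an unadjusted p under 0.05, Axl not among them (limma p 0.0732). Of the members, Mertk had the lowest count, 56; among the other pathway genes counts went down to 5 (Il10), and 14 for Marco and 35 for Cx3cl1 among the named ones.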
